A study of Homo sapiens with 6 samples.

Results

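Kinesins are motor proteins that walk along microtubules or take them apart, using ATP. In dividing cells a subset of them builds the spindle, aligns the chromosomes and completes cytokinesis, and many genes of that subset are switched on late in the cell cycle. In interphase cells others carry vesicles, mitochondria and ciliary components, often through light chains and adaptors that hold the cargo. The values below describe the kinesin genes in SaOS-2 cells, a human osteosarcoma line that the study describes as null for RB, with and without induction of p21, an inhibitor of cyclin-dependent kinases. Kinesins were taken as every gene symbol of the table made of KIF or KIFC, a number and at most a final A, B or C, which gave 42 of the 23228 genes. CENPE, a mitotic kinesin with another kind of symbol, is therefore described with the partner genes.

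All 6 libraries came from SaOS-2 cells that carry a Tet-inducible p21 vector. The 3 p21 OFF libraries were from untreated cells and the 3 p21 ON libraries from cells given 1 μg/ml doxycycline, the inducer, for 24 h. Libraries of cells given doxycycline without the vector were not analysed here, so p21 and the drug cannot be told apart, and whether the line is 1 clone is not given in the sources used here. The study's methods speak of biological replicates, but neither they nor the labels say whether these were separate cultures, so p-values measure the spread between these libraries, which may be technical. The table holds normalized counts, which are read counts per gene divided by a size factor for each library. They came from 12795490 to 21975045 reads per library in p21 OFF and from 12918390 to 16630552 in p21 ON cells. CDKN1A, the gene of p21, had a log2 fold change of 5.11 (SE 0.07, n = 3 per group, limma adjusted p = 1.12e-19), counting reads of the vector and of the cells' own gene together. The osteoblast genes RUNX2, SP7, ALPL, COL1A1 and SPARC had means of 3403 to 37302 normalized counts in both groups and IBSP of 99.0 in p21 ON and 129 in p21 OFF cells. IBSP was lower in p21 ON cells, with a log2 fold change of -0.38 (limma adjusted p = 0.0264), and the other 5 did not reach an adjusted p under 0.05. PTPRC and PECAM1, which mark blood and endothelial cells, had group means of 5.91 to 13.5, KRT5 of 22.3 to 27.4, and EPCAM, an epithelial marker, of 313 to 330.2.

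The 42 kinesins were divided by their known main role into 14 mitotic kinesins, 17 transport kinesins and 11 others with ciliary, signalling, mixed or little-known roles. These classes were set with earlier results of these data known. In p21 ON cells every kinesin classed as mitotic with enough reads to test was lower, by 1.75-fold to 2.83-fold. KIF2A, which also acts at spindle poles but was classed with the others, was not called (log2 fold change -0.05). Of the 15 transport kinesins tested, 10 did not pass the test in either direction. Genes with a mean of at least 10 normalized counts were tested with limma on log2(normalized count + 1), and those under 0.05 once p-values were adjusted (Benjamini-Hochberg) over the 13255 genes tested were called. By this rule 12.7% of all genes tested were called lower and 10.5% higher, by edgeR 12.4% and 10.6%, and by DESeq2 10.7% and 8.43%. Of the 13 mitotic kinesins tested, 13 were called lower and none higher by each of the 3 tools, with a limma median log2 fold change of -1.28 against 0.0056 over all genes. Of the 15 transport kinesins tested, 1 was called lower, 4 were called higher and 10 were neither, with a median of 0.07. Of the 7 others tested, 1 was called lower, 1 higher and 5 neither, with a median of 0.05. In 13 of the 13 mitotic kinesins every p21 ON library lay below every p21 OFF library, an arrangement that held for 21.3% of all genes. A log2 fold change of -1 or lower was found in 11 of the 13 and in 1.15% of all genes. In bulk RNA, fewer cells in G2 or mitosis and less of these transcripts per cell cannot be told apart. The proliferation genes TOP2A, CCNB1, CCNA2 and MKI67 moved with them, with log2 fold changes from -1.47 to -0.90, and their part in the result was not tested.

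**Figure D1:**
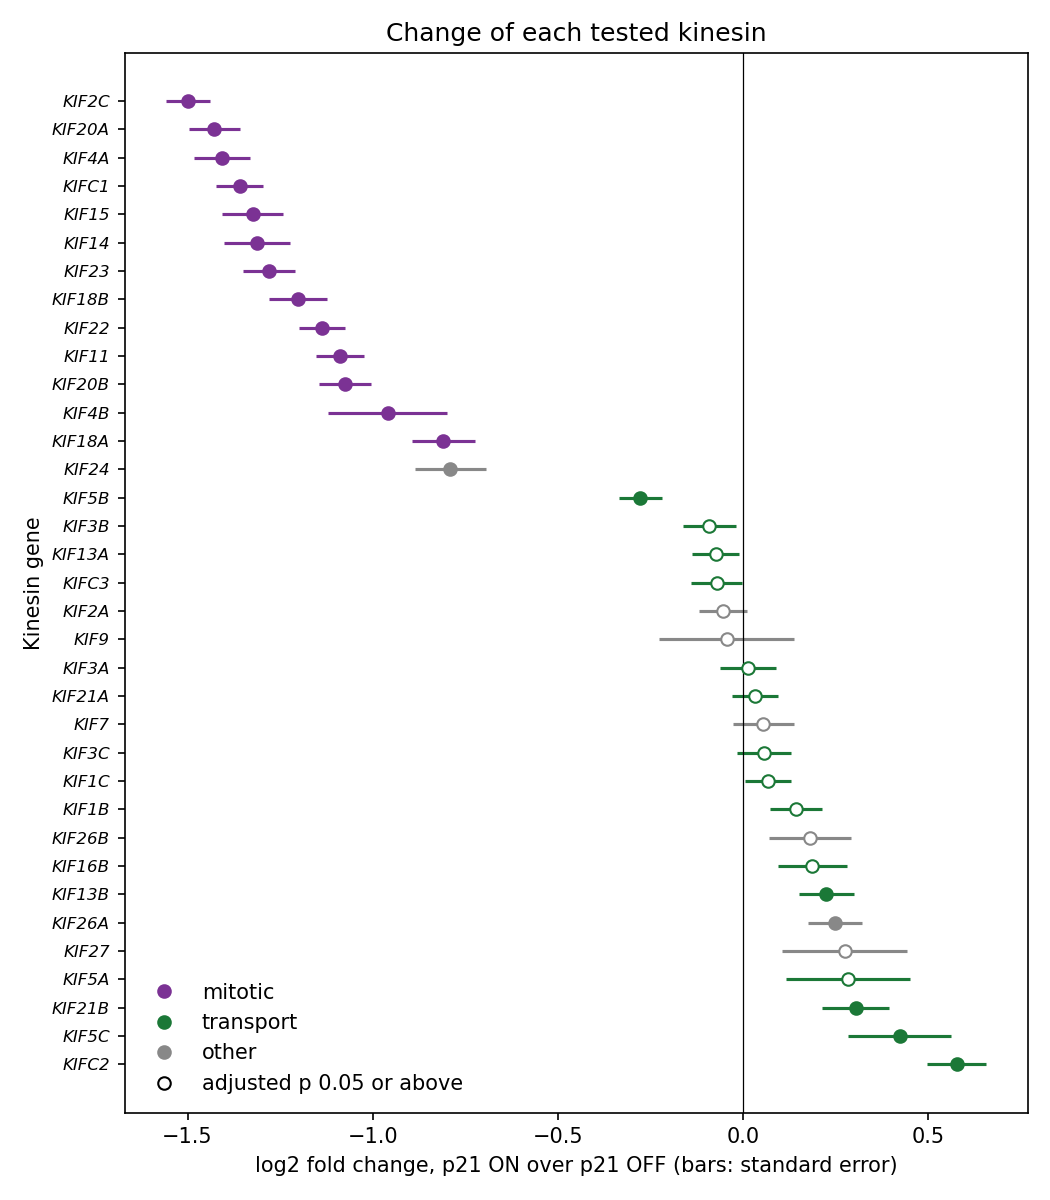
Log2 fold change of p21 ON over p21 OFF cells, on the x axis, for each of the 35 kinesins tested, one per row on the y axis, with bars for the standard error, colours for the role and filled points for an adjusted p under 0.05. The 13 mitotic kinesins lie between -1.50 and -0.81, and the 15 transport kinesins between -0.28 and 0.58.

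Many late cell cycle promoters hold a cell cycle genes homology region (CHR), which the DREAM and MMB complexes bind, close to CCAAT boxes, which bind NF-Y. The promoters of the 3 mitotic kinesins with the largest falls are shown first, followed by KIFC1 and KIF24, chosen after their values were seen as falling genes that hold a CHR, and by KIF5B, the transport kinesin with the highest level per kilobase in p21 OFF cells. The windows are from RefSeq on GRCh38.p14, run 5′ to 3′ from 250 bases before to 50 bases after the transcription start, and were given for 34 of the 42 kinesins. Capitals mark CHR letters (TTTGAA or TTCGAA on either strand), CCAAT on either strand, and TTTAAA, a run of letters added after the windows were seen.
KIF2C (chr1:44739587-44739886, plus strand): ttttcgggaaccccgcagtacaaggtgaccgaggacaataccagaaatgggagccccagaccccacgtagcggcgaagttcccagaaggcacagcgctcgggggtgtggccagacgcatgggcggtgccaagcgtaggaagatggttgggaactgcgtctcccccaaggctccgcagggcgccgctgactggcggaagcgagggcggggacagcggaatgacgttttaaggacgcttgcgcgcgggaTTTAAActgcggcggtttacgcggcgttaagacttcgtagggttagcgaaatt
KIF20A (chr5:138178862-138179161, plus strand): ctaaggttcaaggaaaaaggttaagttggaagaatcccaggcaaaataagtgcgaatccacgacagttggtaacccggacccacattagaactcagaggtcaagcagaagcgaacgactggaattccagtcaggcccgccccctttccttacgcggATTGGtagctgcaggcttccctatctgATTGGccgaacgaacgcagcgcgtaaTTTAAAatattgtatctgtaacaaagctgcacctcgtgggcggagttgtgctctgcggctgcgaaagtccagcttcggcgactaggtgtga
KIF4A (chrX:70289854-70290153, plus strand): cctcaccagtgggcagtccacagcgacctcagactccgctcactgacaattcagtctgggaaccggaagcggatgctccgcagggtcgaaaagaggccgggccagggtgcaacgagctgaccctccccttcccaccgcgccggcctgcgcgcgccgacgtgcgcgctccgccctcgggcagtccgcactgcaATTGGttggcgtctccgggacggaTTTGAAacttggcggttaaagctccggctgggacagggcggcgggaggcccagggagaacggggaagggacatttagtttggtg
KIFC1 (chr6:33391573-33391872, plus strand): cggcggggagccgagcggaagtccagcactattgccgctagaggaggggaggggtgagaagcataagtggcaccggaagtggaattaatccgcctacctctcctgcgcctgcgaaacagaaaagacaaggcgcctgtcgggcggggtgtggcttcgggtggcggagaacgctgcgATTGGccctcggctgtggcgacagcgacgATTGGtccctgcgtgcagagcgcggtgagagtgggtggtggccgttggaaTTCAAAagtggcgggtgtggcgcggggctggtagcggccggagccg
KIF24 (chr9:34329219-34329518, minus strand): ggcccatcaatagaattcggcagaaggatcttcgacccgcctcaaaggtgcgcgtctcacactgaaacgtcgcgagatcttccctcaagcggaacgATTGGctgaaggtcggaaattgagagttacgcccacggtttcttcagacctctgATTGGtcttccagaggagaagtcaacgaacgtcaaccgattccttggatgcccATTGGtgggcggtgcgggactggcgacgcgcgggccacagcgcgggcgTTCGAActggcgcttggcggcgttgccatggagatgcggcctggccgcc
KIF5B (chr10:32056376-32056675, minus strand): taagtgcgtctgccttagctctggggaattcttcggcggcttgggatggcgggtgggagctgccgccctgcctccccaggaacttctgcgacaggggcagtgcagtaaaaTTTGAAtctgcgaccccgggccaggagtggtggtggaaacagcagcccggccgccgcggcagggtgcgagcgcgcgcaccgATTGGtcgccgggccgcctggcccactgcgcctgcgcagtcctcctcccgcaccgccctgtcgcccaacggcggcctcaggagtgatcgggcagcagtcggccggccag

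KIF2C and KIF20A held neither CHR sequence, and KIF20A had CCAAT boxes at -94 and -67 from the start. Each held a TTTAAA, at -3 in KIF2C and at -41 in KIF20A, and these letters were in 12.2% of all 35116 windows of the RefSeq table. They were in 26.7% of mitotic and 5.88% of transport windows. KIF2C and KIF20A are among the 4 mitotic kinesins that hold them. Since the letters were added after the windows were seen, these shares are a description and no independent support. KIF14 and KIF23, which hold a CHR, also had a TTTAAA, at -198 and -211, as did the transport kinesin KIF16B at -241. In KIF4A a CCAAT box at -58 was followed by a CHR at -34, and in KIFC1 boxes at -75 and -46 were followed by a CHR at 5. KIF24 had a CHR at 2 behind 3 CCAAT boxes. KIF5B differed in layout, with its CHR at -140 lying upstream of its CCAAT box at -59. A match describes the letters of the window, not binding.

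Over the class, 12 of the 15 windows of mitotic kinesins (80.0%) held a CHR, from 11 of the 14 genes, against 16.4% of all windows. CCAAT was in 73.3% of the mitotic windows and 34.6% of all windows, and both motifs stood together in 66.7% against 6.38%. In the 10 mitotic kinesins with both, the nearest upstream CCAAT began 9 to 122 bases before a CHR, and 7 of the 10 distances lay between 23 and 39 bases. These limits come from the same distances, and spacing was not compared with that of all windows holding both motifs. No CHR overlapped a CCAAT in any of these windows. The E2F-like octamers TTTCCCGC, TTTGGCGC and TTTCGCGC were in 6.67% of mitotic windows, that of KIF15, and in 2.74% of all windows, on either strand. Of the 17 windows of transport kinesins a single one, that of KIF5B, held a CHR (5.88%), and of the 11 windows of the other kinesins a single one, that of KIF24 (9.09%). Sorted by the test, 13 of the 15 kinesins called lower held a CHR, and of the 13 tested kinesins with a window that were not called lower, 0 did. Over all genes with a window, 5336 of 27305 held one. Windows were given for all 14 mitotic kinesins but only for 12 of the transport kinesins and 8 of the others. Tested kinesins that were not called lower and had no window are therefore missing from this count. The RefSeq windows include those of genes that are not expressed in these cells, and no test was run on these shares.

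**Figure D2:**
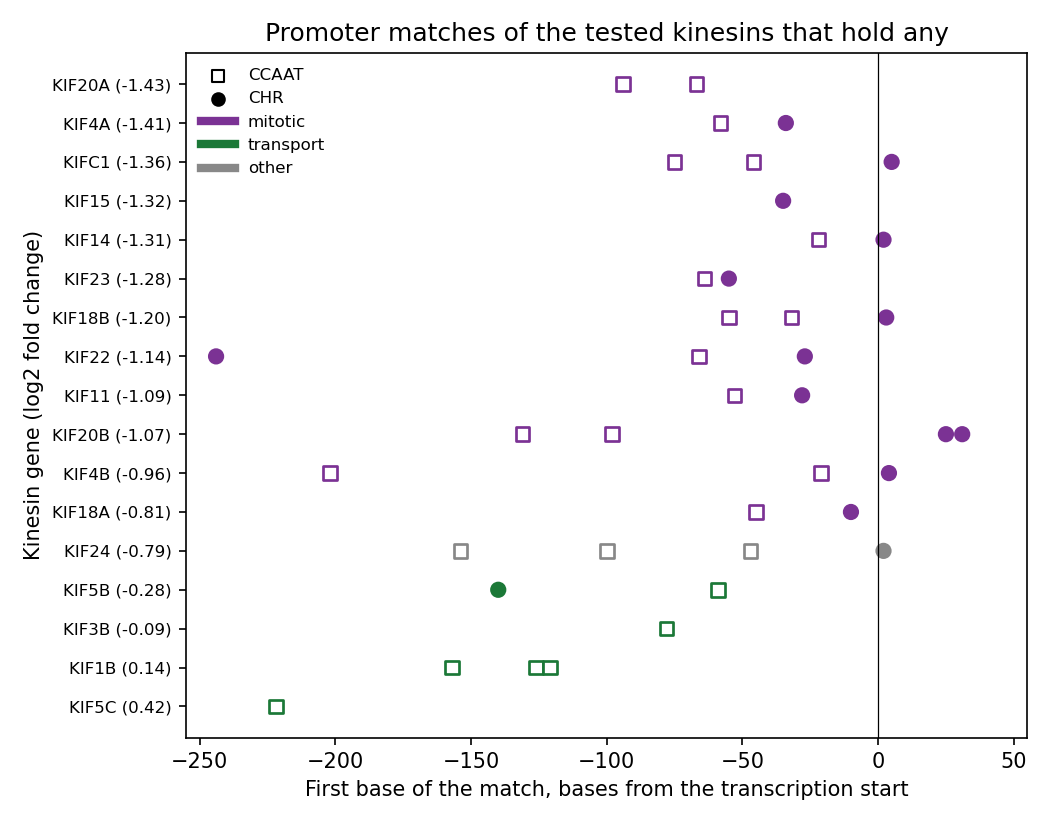
Position of CHR matches (filled circles) and CCAAT matches (open squares) in the promoter windows, in bases from the transcription start on the x axis, for the tested kinesins that hold either, ordered by log2 fold change on the y axis. CHR matches of the falling genes sit near the start, with those of KIF5B at -140 and of KIF22 at -244 farther upstream, the latter being the same site as its match at -27, read from a second start.

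The 3 motors of spindle assembly all fell. KIF11 is the kinesin that slides antiparallel microtubules to separate the spindle poles, and it lies on chromosome 10 of GRCh37 from 94333862 to 94415152. It had 1502, 1533 and 1597 normalized counts with p21 OFF and 743, 738 and 696 with p21 ON. Its log2 fold change was -1.09 (SE 0.06, limma adjusted p = 4.86e-10), a 2.13-fold lower level. KIF15, a motor that helps to keep the spindle bipolar, had 569, 593 and 582 normalized counts with p21 OFF and 242, 240 and 214 with p21 ON, a log2 fold change of -1.32 (SE 0.08). KIFC1, on chromosome 6 from 33359600 to 33377673, moves to microtubule minus ends, focuses spindle poles and clusters extra centrosomes. It had 2247, 2503 and 2305 normalized counts with p21 OFF against 887, 930 and 928 with p21 ON, a log2 fold change of -1.36 (SE 0.06, limma adjusted p = 4.90e-11). For each of the 3 genes the groups were separated by a gap wider than the range within either group.

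Kinesins that act on kinetochores and chromosome arms included the largest and the smallest fall of the class. KIF2C, a depolymerase that removes faulty attachments at centromeres, lies on chromosome 1 from 45205490 to 45233439. Its values were 3324, 3416 and 3242 normalized counts with p21 OFF and 1207, 1205 and 1119 with p21 ON. The log2 fold change of -1.50 (SE 0.06, limma adjusted p = 1.97e-11) was a 2.83-fold lower level, and KIF2C also had the highest level per exonic length of the class in p21 OFF cells, 913 normalized counts per kilobase, and in p21 ON cells, 323. KIF18A, which damps the movements of aligned chromosomes, had 491, 478 and 524 normalized counts with p21 OFF and 302, 291 and 259 with p21 ON. Its log2 fold change was -0.81 (SE 0.09, limma adjusted p = 1.64e-06), the smallest in the class, and whether it differs from that of the other mitotic kinesins was not tested. Its relative KIF18B, which limits the length of astral microtubules, had 1321, 1624 and 1510 normalized counts with p21 OFF and 676, 606 and 650 with p21 ON, a log2 fold change of -1.20 (SE 0.08). The p21 OFF libraries spread more for KIF18B than for KIF18A, and in both genes the groups did not overlap. KIF22, a chromokinesin that pushes chromosome arms away from the poles, had 1881, 1798 and 1774 normalized counts with p21 OFF and 817, 807 and 854 with p21 ON, a log2 fold change of -1.14 (SE 0.06).

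KIF4A is a chromokinesin that also works with PRC1 at the central spindle. It had 1155, 1070 and 1034 normalized counts with p21 OFF and 431, 417 and 381 with p21 ON, and its log2 fold change was -1.41 (SE 0.08, limma adjusted p = 1.54e-10). KIF4B, on chromosome 5 from 154393315 to 154397701, is its near copy without introns. It had 85.4, 99.2 and 89.4 normalized counts with p21 OFF and 50.1, 52.4 and 38.0 with p21 ON, a log2 fold change of -0.96 (SE 0.16, limma adjusted p = 0.00037). Of the 51-base windows of KIF4B transcripts, the length of the reads, 13.4% occur without a mismatch in KIF4A transcripts. The value of KIF4B is uncertain for this reason, since reads from these windows cannot be told apart. How such reads were counted is not given in the sources used here. Of the windows of KIF4A transcripts, 12.7% likewise occur in KIF4B transcripts.

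The kinesins of the central spindle and of cytokinesis fell as a group. KIF20A brings the chromosomal passenger complex, which holds Aurora B, to the central spindle. It had 1953, 2143 and 2124 normalized counts with p21 OFF and 728, 819 and 765 with p21 ON, a log2 fold change of -1.43 (SE 0.07, limma adjusted p = 5.18e-11), the second largest of the class. KIF23, which forms centralspindlin with RACGAP1, had 1587, 1559 and 1527 normalized counts with p21 OFF and 661, 680 and 585 with p21 ON, a log2 fold change of -1.28. In both genes the groups were far apart, with no overlap. KIF20B, another kinesin-6 motor of cytokinesis, had 1291, 1244 and 1331 normalized counts with p21 OFF and 627, 642 and 566 with p21 ON, a log2 fold change of -1.07 (SE 0.07). KIF14, which works with the citron kinase CIT at the midbody, had 701, 865 and 883 normalized counts with p21 OFF and 342, 317 and 320.2 with p21 ON, a log2 fold change of -1.31 (SE 0.09). Replicate 1 of p21 OFF was the lowest of its group for KIF14 and for 7 of the 13 mitotic kinesins tested, yet stayed above every p21 ON library in each. KIF20A, KIF23 and KIF2C are among the kinesins that overlap exons annotated on the opposite strand, and the strand setting of the counting is not given in the sources used here. KIF2B, a spindle motor related to KIF2C, had 1 read over the 6 libraries and was not tested.

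**Figure D3:**
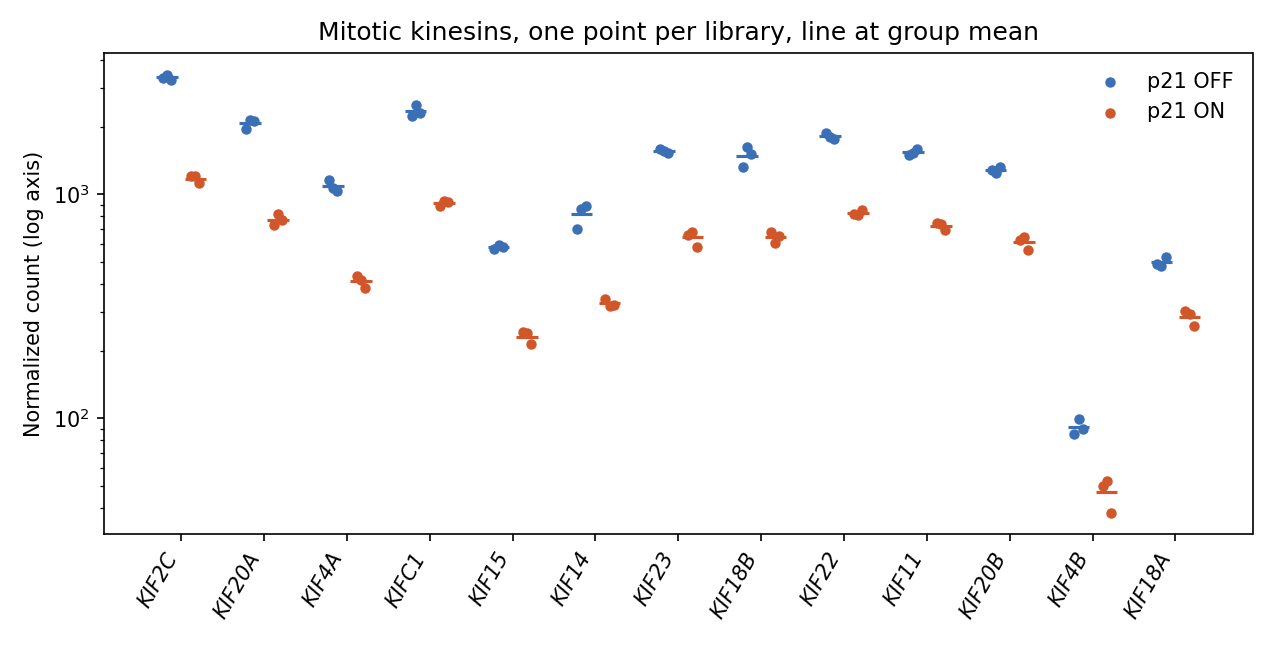
Normalized counts of the 13 mitotic kinesins tested, on a log y axis, with one point per library and a line at the mean of each group of 3, for the genes named on the x axis in order of their fold change. In each gene the 3 p21 ON points lie below the 3 p21 OFF points, also in KIF4B, the one with the fewest reads.

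Among the transport kinesins KIF5B fell and KIFC2 rose in every setting tried. KIF5B, the widely expressed heavy chain of conventional kinesin-1, lies on chromosome 10 from 32297943 to 32345353. It had 4522, 4595 and 4693 normalized counts with p21 OFF and 3945, 3817 and 3635 with p21 ON, with no overlap between the groups. The log2 fold change was -0.28 (SE 0.06, limma adjusted p = 0.00234), a 1.21-fold lower level that was smaller than that of any mitotic kinesin tested. KIFC2, a kinesin-14 motor known from transport in neurons, lies on chromosome 8 from 145691426 to 145699585. It had 1341, 1308 and 1209 normalized counts with p21 OFF and 2001, 1656 and 2124 with p21 ON. Its log2 fold change was 0.58 (SE 0.08, limma adjusted p = 5.57e-05), a 1.49-fold higher level, and it stayed between 0.50 and 0.68 with any one library left out. The p21 ON libraries of KIFC2 spread widely and all lay above p21 OFF. Exons of FOXH1 on the opposite strand overlap KIFC2.

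The 3 other rises among transport kinesins were smaller, and whether they were called changed with the libraries used. KIF5C, a kinesin-1 heavy chain enriched in neurons, had 61.5, 59.4 and 68.0 normalized counts with p21 OFF and 86.1, 84.1 and 83.6 with p21 ON, a log2 fold change of 0.42 (SE 0.14, limma adjusted p = 0.0359). KIF21B, a neuronal motor of the kinesin-4 family, had 521, 669 and 679 normalized counts with p21 OFF and 747, 748 and 796 with p21 ON, a log2 fold change of 0.30 (limma adjusted p = 0.0211). KIF13B, a kinesin-3 motor of membrane cargo, had 918, 1069 and 1109 normalized counts with p21 OFF and 1172, 1207 and 1229 with p21 ON, a log2 fold change of 0.23 (limma adjusted p = 0.0344). In all 3 genes the p21 ON libraries lay above the p21 OFF libraries. Across the 15 transport kinesins this held for 6 genes, and the opposite for 1, where 19.1% and 21.3% of all genes tested did so. The count of 4 transport kinesins called higher became 1 when replicate 1 of p21 OFF or replicates 1 or 3 of p21 ON were left out in turn, and 2 without p21 ON replicate 2. Over all genes, the 1393 called higher became 692 without p21 ON replicate 1 and 739 without replicate 3. With each library left out the log2 fold change was 0.38 to 0.48 for KIF5C, 0.18 to 0.37 for KIF21B and 0.14 to 0.28 for KIF13B. Replicate 1 of p21 OFF had the lowest value of its group for 11 of the 15 transport kinesins, and without it KIF3B, a kinesin-2 subunit, was called lower with a log2 fold change of -0.17.

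The 10 transport kinesins that were neither higher nor lower had log2 fold changes from -0.09 for KIF3B to 0.28 for KIF5A, and their 95% intervals reached from -0.24 to 0.63. They included the kinesin-2 subunits KIF3A, KIF3B and KIF3C, which drive intraflagellar and vesicle transport, with values of 0.01, -0.09 and 0.06. KIF1B and KIF1C, carriers of vesicles and organelles, had values of 0.14 and 0.07, KIF13A of -0.07, the endosome motor KIF16B of 0.19, KIF21A of 0.03 and KIFC3 of -0.07. KIF1B had 4481, 5385 and 5474 normalized counts with p21 OFF and 5694, 5684 and 5490 with p21 ON. In a simulation of these libraries, the changed genes were drawn at random from all genes with a mean of at least 10. There 48% of 50 genes changed by 1.25-fold and 94% of 50 genes changed by 1.5-fold were called. Far fewer genes were changed in the simulation than the 1681 lower and 1393 higher genes called in the data. Its threshold after adjustment was therefore stricter, and these rates may be too low for these data. They are also not specific to genes of the levels given here. Small changes of these kinesins may still have gone undetected. The neuronal motors KIF1A and KIF17 had 2 and 32 reads over the 6 libraries and were not tested.

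**Figure D4:**
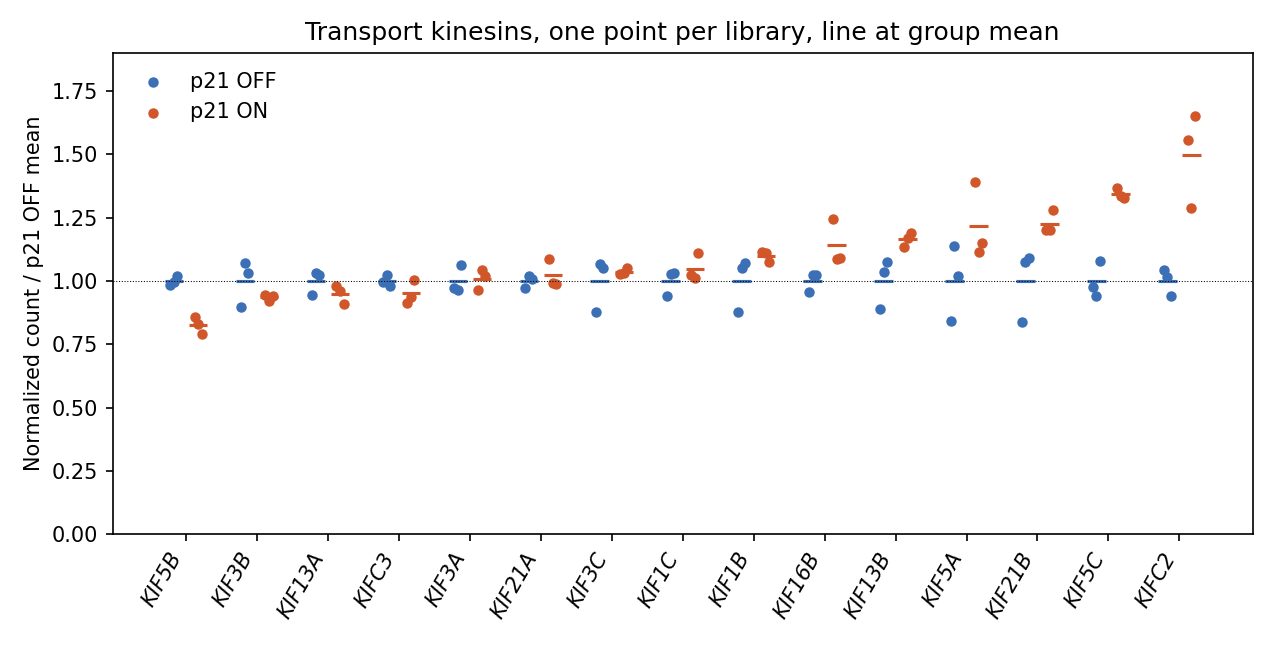
Normalized count of each of the 15 tested transport kinesins divided by its p21 OFF mean, on the y axis from 0, with one point per library and a line at the mean of each group of 3, in order of fold change along the x axis. Most p21 ON points lie near 1. Those of KIF5B, at the left, lie below its own p21 OFF points. In 6 genes the p21 ON points lie above the gene's own p21 OFF points: KIF1B, KIF16B, KIF13B, KIF21B, KIF5C and, at the right, KIFC2.

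Of the other kinesins, KIF24, a depolymerase of the mother centriole that holds back cilia, fell from 276, 315 and 329.7 normalized counts to 173, 182 and 175. Its log2 fold change was -0.79 (SE 0.10, limma adjusted p = 1.19e-05), close to that of KIF18A. KIF26A, an atypical kinesin linked to growth factor signalling, had 1044, 1125 and 1195 normalized counts with p21 OFF and 1264, 1281 and 1456 with p21 ON, a log2 fold change of 0.25 (limma adjusted p = 0.0199) that was not called without p21 ON replicate 3. KIF2A, a depolymerase of spindle poles and growing neurites, had a log2 fold change of -0.05 (SE 0.06, limma adjusted p = 0.573), and KIF7, a regulator of Hedgehog signalling at the tip of the cilium, of 0.05. KIF9, KIF26B and KIF27 had values of -0.04, 0.18 and 0.27, and all 5 were neither higher nor lower. KIF27 shares 18.9% of its 51-base windows with transcripts of other genes, so its value is uncertain. KIF6, KIF12, KIF19 and KIF25 had 34, 2, 0 and 12 reads over the 6 libraries and were not tested.

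Several kinesin families hold a mitotic member beside a relative with another role, and the log2 ratio of their normalized counts, each plus 1, was compared within each library. The ratio of KIF2C to KIF2A, in kinesin-13, was 1.31 ± 0.06 with p21 OFF and -0.13 ± 0.02 with p21 ON (n = 3 each, ± SD). Where this ratio crosses 0 depends on gene length: per kilobase of exon KIF2C stayed above KIF2A in both groups, with 913 against 103 normalized counts per kilobase with p21 OFF and 323 against 99.0 with p21 ON. KIF14 to KIF1B, in kinesin-3, went from -2.65 ± 0.02 to -4.10 ± 0.05 (n = 3 each, ± SD), KIF4A to KIF21A, in kinesin-4, from -0.64 ± 0.12 to -2.08 ± 0.06, and KIFC1 to KIFC3, in kinesin-14, from 1.72 ± 0.06 to 0.43 ± 0.05. The differences were -1.44, -1.46, -1.44 and -1.29 in that order. In each pair the p21 ON libraries lay below the p21 OFF libraries (p = 0.1 by a two-sided exact permutation test, which cannot go lower with 3 libraries against 3). The planned pair in kinesin-8 was not computed because KIF19 had 0 reads.

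**Figure D5:**
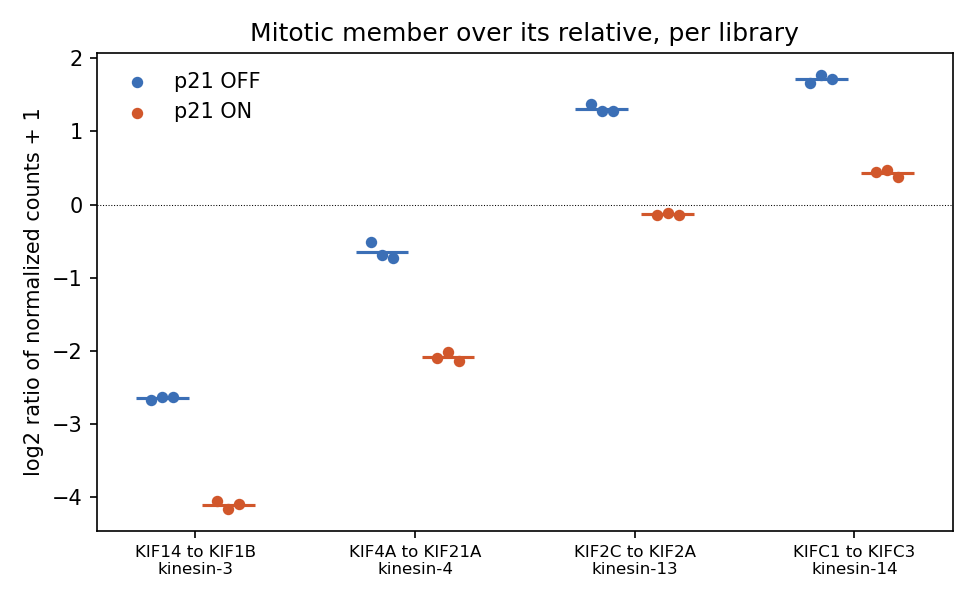
Log2 ratio of normalized counts of a mitotic kinesin to a relative of its family, on the y axis, with one point per library and a line at each group mean, for the 4 pairs on the x axis. All 3 p21 ON points lie below all 3 p21 OFF points in each pair. Counts are not divided by gene length, so the distance between the groups can be read and the position of 0 cannot.

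Summed as normalized counts per kilobase of exon, the mitotic kinesins made up 54.4 to 55.8% of all kinesin transcripts in the p21 OFF libraries and 31.4 to 33.5% in the p21 ON libraries. Their sum was 3999, 4214 and 4089 with p21 OFF and 1667, 1683 and 1605 with p21 ON. The sum of the transport kinesins was 2743, 2965 and 2961 with p21 OFF and 3012, 2889 and 3009 with p21 ON, so the groups overlapped. The lengths are those of all annotated exons together, so genes with long exons that these cells do not use have understated levels. KIF5B was the transport kinesin of the highest level, with 785 normalized counts per kilobase in p21 OFF and 648 in p21 ON cells. It stood between KIF2C at 913 and KIFC1 at 776 with p21 OFF, and above KIF2C at 323 and KIFC1 at 302 with p21 ON.

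The study's lists of cell cycle genes, drawn from an earlier meta-analysis and not from these libraries, hold 12 of the 14 mitotic kinesins among the low-stringency G2/M genes and 7 among the high-stringency ones. The 2 mitotic kinesins in neither list are KIF4B and KIF2B. Of the 17 transport kinesins the low-stringency G2/M list holds 1, KIF5B, and of the 11 others none. KIF2A, with a log2 fold change of -0.05, is in the low-stringency G1/S list, and KIF24 is in none.

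Partners of the mitotic kinesins moved with them. Of 12 such genes 12 were called lower, against 12.7% of all genes, with a median log2 fold change of -1.16. The list was chosen with earlier results of these data known, so this count is a description and no independent support. CENPE, the kinesin that carries chromosomes to the spindle equator, had 1425 ± 102 normalized counts with p21 OFF and 631 ± 30.5 with p21 ON (n = 3 each, ± SD), a log2 fold change of -1.17 (limma adjusted p = 6.96e-10). RACGAP1, the partner of KIF23, had a log2 fold change of -1.15, PRC1, the partner of KIF4A, of -1.18, and TPX2, which recruits KIF11 and KIF15 to the spindle, of -1.16. AURKB, the kinase carried by KIF20A, had the largest value of this list, -1.74, and PLK1 had -1.44. ECT2, INCENP, HMMR, NUSAP1 and CIT had values of -0.99, -1.08, -1.28, -0.84 and -1.09. MAPRE1, which marks growing microtubule ends, had the smallest, -0.22 (limma adjusted p = 0.0181), and was not called when counts were scaled by library size alone (adjusted p = 0.0509) or without p21 ON replicate 1 or 3 (adjusted p = 0.105 and 0.0955).

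Of the light chains and cargo adaptors, 15 of 16 genes could be tested. Their median log2 fold change was 0.03, and 1 was called lower and 1 higher, no larger a share than the 12.7% and 10.5% of all genes. The kinesin-1 light chains KLC1, KLC2, KLC3 and KLC4 had values of -0.03, -0.15, 0.16 and -0.03, and none was called, though KLC2 was called lower without p21 OFF replicate 3 (adjusted p = 0.0449). KIAA1279, which encodes the kinesin binding protein that blocks certain motors, had 563 ± 62.5 normalized counts with p21 OFF and 449.6 ± 39.4 with p21 ON (n = 3 each, ± SD), a log2 fold change of -0.32 (limma adjusted p = 0.0158) that was not called without p21 ON replicate 3. MAPK8IP3, an adaptor of kinesin-1, had a log2 fold change of 0.23 (limma adjusted p = 0.0462) and was not called when replicates 2 or 3 of p21 OFF or 1 or 3 of p21 ON were left out in turn, or with no filter on low values. The kinesin-2 subunit KIFAP3, the mitochondrial adaptors TRAK1 and TRAK2 and their receptors RHOT1 and RHOT2 had values of 0.04, 0.12, 0.0019, -0.13 and 0.03.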

How the data were processed

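RNA of 6 SaOS-2 libraries was sequenced by the authors with stranded mRNA kits and single-end reads. Reads were mapped to hg19 with STAR and counted on gene names with HTSeq. The deposited values are a signal per gene and library, the counts divided by DESeq2 size factors. Versions and the strand setting are not given in the sources used here. In each library 100% of values were whole multiples of 1 step, within 0.01 reads, which returned the reads.

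limma 3.58.1 (trend, no covariates) in R 4.3.3 was run on log2(normalized count + 1) over genes with a mean of at least 10. This scale understates changes of weakly expressed genes. Alternatives were edgeR 4.0.16 and DESeq2 1.42.0 on recovered reads, library size scaling, pseudocounts of 0.1 and 10, other filters, a replicate block, other class memberships and each library left out. On simulated counts 96% of 50 genes changed by 2-fold were called, as were 5 unchanged genes among 13199 tested. Far fewer genes were changed there than were called in the data. The members, classes, lists and rules were chosen with earlier results of these data known. Every kinesin was to be accounted for, with full values for mitotic kinesins and for others that were called. Positions are from GENCODE release 44 on GRCh37. Part of the cell line's genotype is not reported here.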

Additional observations from a re-analysis of the deposited data

How the results depend on the processing

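All 13 tested mitotic kinesins were called lower under every alternative run, as were KIF5B and KIF24, and KIFC2 was called higher. The median log2 fold change of the mitotic kinesins was -1.24 with scaling by library size alone, -1.20 with KIF2A and KIF24 counted as mitotic and KIFC3 as other, and -1.30 to -1.21 with each library left out. That regrouping gave 14 mitotic kinesins called lower, with KIF2A not called, and left 0 other kinesins called lower. With each library left out, the transport kinesins called higher numbered 1 to 4 and those called lower 1 to 2, the other kinesins called higher 0 to 1, and all genes called lower 888 to 1662 and higher 692 to 1488, the fewest without p21 ON replicate 1 (888 and 692) or replicate 3 (1076 and 739). KIF5C was not called by DESeq2, without a filter on low values, or when any library other than p21 OFF replicate 3 was left out. Scaling by library size alone changed the calls over all genes to 2033 higher and 1194 lower. The cause of these changes was not tested. Replicate numbers did not pair the libraries: deviations of same-numbered libraries correlated at -0.06, -0.02 and -0.05. With the replicate block 1407 genes were called higher and 1513 lower, with 13 mitotic kinesins lower and 4 transport kinesins higher and 1 lower. Depth limits KIF4B, with 40 reads in its poorest library.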

Other observations

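Cytoplasmic dynein, the motor that moves toward microtubule minus ends, and its activator dynactin were compared as a second motor system. Of 22 genes tested, 9 were called lower and none higher by limma, against 12.7% of all genes lower, with a median log2 fold change of -0.17. The light chain DYNLL1, which also serves many other complexes, had 2836 ± 334 normalized counts with p21 OFF and 2000 ± 93.9 with p21 ON (n = 3 each, ± SD), a log2 fold change of -0.50 (limma adjusted p = 0.000136). The dynactin subunits DCTN3 and DCTN6 had values of -0.40 and -0.34, the intermediate chain DYNC1I2 of -0.34 and the capping protein CAPZB of -0.28. Of these, DCTN6 was not called without p21 ON replicate 1 (limma adjusted p = 0.103). DYNC1LI1, DYNLRB1, ACTR1A and CAPZA1 were called lower with values from -0.24 to -0.19, but of 14 alternatives DYNLRB1 was not called in 7, ACTR1A in 5, and DYNC1LI1 and CAPZA1 in 3 each. With the replicate block ACTR1A was not called (limma adjusted p = 0.0683). The heavy chain DYNC1H1 had a log2 fold change of 0.20 (limma adjusted p = 0.104), and its libraries overlapped between the groups. The count of 9 became 5 under scaling by library size alone, 4 without p21 ON replicate 1 and 5 without p21 ON replicate 3. That scaling, and leaving out p21 OFF replicate 2, brought DYNC1H1 past the threshold as higher.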
